A study of Mus musculus with 45 samples.

Results

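Arginine can be spent in a macrophage along competing routes, and the 10 genes described here encode the enzymes and carriers of those routes. They were taken as a named list: Nos2 and Gch1 (nitric oxide), Arg1 and Arg2 (arginases), Slc7a1 and Slc7a2 (arginine carriers), Ass1 (arginine resynthesis), and Odc1, Srm and Sms (polyamines). They are 10 of the 24421 genes in the deposited table. Of the 10, 9 reached 1 CPM (reads scaled to library size) in at least 3 libraries and were tested among 11380 genes, and Ass1 did not. Nos2 reached 1 CPM only with IFN-γ or both cytokines (as deposited, at most 0.115 untreated and 0.242 with IL-4). Arg1 did so only with IL-4 or both cytokines (at most 0.311 untreated and 0.197 with IFN-γ). Nitric oxide synthase turns arginine into nitric oxide and citrulline, and it needs the cofactor tetrahydrobiopterin. Arginase instead yields urea and ornithine, from which ornithine decarboxylase makes putrescine, the first polyamine. Macrophages given IFN-γ are known for the first route and macrophages given IL-4 for the second.

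The RNA came from bone marrow macrophages of C57BL/6 mice, grown with medium conditioned by L929 cells and taken on day 7. Poly(A) RNA-seq libraries were made in 7 groups of 3: IL-4 at 10 ng/ml, IFN-γ at 100 ng/ml and the pair together, each for 2 h and for 4 h, and untreated cells. Each group is written below by its cytokine and time. The labels do not say whether the 3 replicates were separate animals or cultures, so p-values measure only the spread between these libraries, which may be technical. The remaining 24 of the 45 samples of the series are not analysed here.

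Library totals ran between 28920801 and 80028327 reads. The ribosomal RNA gene Rn45s took at most 3.21% of the reads of any treated library, against 43.2% and 15.7% in untreated replicates 2 and 3, and this lowers the CPM of every other gene there. CPM was therefore divided by a median-ratio factor for each library (0.577 to 1.21), and levels below are rescaled CPM. The 8 macrophage markers searched for (Csf1r, Adgre1 and others) summed to between 16553 and 37084 rescaled CPM in every group, and all 8 had reads. Neutrophil markers summed to between 64.2 and 373, and T and NK cell markers to between 2.60 and 27.1. The 7 dendritic cell markers summed to between 4.76 and 11.3 with IFN-γ, 4.81 and 7.55 with the combination and 2.40 and 4.62 with IL-4, against 3.65 to 5.13 in untreated cells. The 6 B cell markers summed to between 6.33 and 14.9 with the combination, against 3.41 to 4.20 in untreated cells, with Pax5 at 0 in all 21 libraries. Of 3 tested dendritic markers, 2 rose with IFN-γ at 2 h and 1 rose with IFN-γ at 4 h and with the combination at each time. The 1 tested B cell marker, Cd79b, rose with the combination at both times. The part of these cells in the results below was not tested. In bulk RNA, fewer cells that express a gene and less RNA of it per cell cannot be told apart.

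Promoter windows, 250 bases before to 50 after the start site, were given for 5 of the 10 genes (Ass1, Slc7a1, Odc1, Gch1 and Sms) in RefSeq on GRCm38.p6. Gch1 and Odc1 are shown because they rose in most treatments, and a Sms window because it holds a motif searched for. Capitals mark the motif.
Gch1, chr14:47189364-47189663, minus strand: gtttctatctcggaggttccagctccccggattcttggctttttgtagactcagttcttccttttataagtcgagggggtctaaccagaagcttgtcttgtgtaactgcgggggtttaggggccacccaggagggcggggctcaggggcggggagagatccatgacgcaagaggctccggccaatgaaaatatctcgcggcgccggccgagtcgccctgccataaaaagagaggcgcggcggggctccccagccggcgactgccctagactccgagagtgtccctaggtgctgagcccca
Odc1, chr12:17544623-17544922, plus strand: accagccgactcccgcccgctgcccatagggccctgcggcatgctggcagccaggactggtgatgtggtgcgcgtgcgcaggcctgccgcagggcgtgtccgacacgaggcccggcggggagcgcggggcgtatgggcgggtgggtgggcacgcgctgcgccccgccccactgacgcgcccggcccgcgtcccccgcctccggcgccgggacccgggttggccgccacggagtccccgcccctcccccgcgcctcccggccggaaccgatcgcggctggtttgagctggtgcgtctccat
Sms, chrX:157492238-157492537, minus strand: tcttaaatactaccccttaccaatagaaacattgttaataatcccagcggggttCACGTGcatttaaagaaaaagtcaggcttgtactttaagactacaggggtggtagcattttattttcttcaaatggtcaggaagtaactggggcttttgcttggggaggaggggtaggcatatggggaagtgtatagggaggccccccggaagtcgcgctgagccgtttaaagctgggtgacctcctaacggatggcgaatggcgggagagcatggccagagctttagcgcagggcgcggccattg
The motifs were searched on both strands. They were the STAT6 type (TTC and GAA separated by 4 bases), the MYC E-box (CACGTG), C/EBP (TTGCNNAA), the core of the interferon-stimulated response element and the kappa B site. The E-box letters stood in 7.15% of all 32851 windows. The Sms window holds an E-box from position -196. An E-box also stood at position -36 of the Ass1 window. None of these letters stood in the Gch1 or Odc1 windows, which says nothing of sites outside them.

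Against untreated cells the treatments raised members and lowered none, in the fit without pairing by replicate number. Calls are adjusted p-values under 0.05 in limma, with Benjamini-Hochberg adjustment over all 11380 genes. Nos2 and Arg1 passed the limit of 1 CPM only through groups where they were high. Counts that hold them, here and below, are therefore a description and no test of the list. With IL-4, 3 of the 9 tested members rose at 2 h, where 5.51% of all tested genes rose and 3.11% fell. At 4 h 4 rose, where 12% of all genes rose and 10.1% fell. With IFN-γ, 4 rose at 2 h, where 10.8% of all genes rose and 7.1% fell, and 4 rose at 4 h, where 21.3% rose and 17.8% fell. The combination raised 5 at 2 h and 6 at 4 h. Among all genes, 12.8% rose and 9.38% fell with the combination at 2 h, and 22.8% rose and 19.8% fell at 4 h. The median log2 change of the 9 members was 0.43 and 0.70 with IL-4 at 2 h and 4 h. It was 0.24 and 0.59 with IFN-γ, and 0.87 and 1.77 with the combination. Medians over all genes lay within 0.01 of 0, which the rescaling is built to give. The member medians hold Nos2 and Arg1, so they too are a description and no test. On CPM as deposited, where the member median was not taken, the median of all genes lay between 0.10 and 0.42 above untreated cells. There 16.1% of all genes rose and 0.615% fell with IL-4 at 2 h, and 34.1% rose and 2.55% fell at 4 h. With IFN-γ 14% rose and 1.62% fell at 2 h, and 17.7% rose and 7.64% fell at 4 h. With the combination 18.1% rose and 2.71% fell at 2 h, and 23.7% rose and 8.46% fell at 4 h. With the replicate number as a block on rescaled CPM, Gch1 and Sms were called lower with IL-4 at 4 h and Sms with the combination at both times, and none of these was called in the block on deposited CPM. These 6 comparisons share the untreated libraries, so they are not independent of each other.

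**Figure D1:**
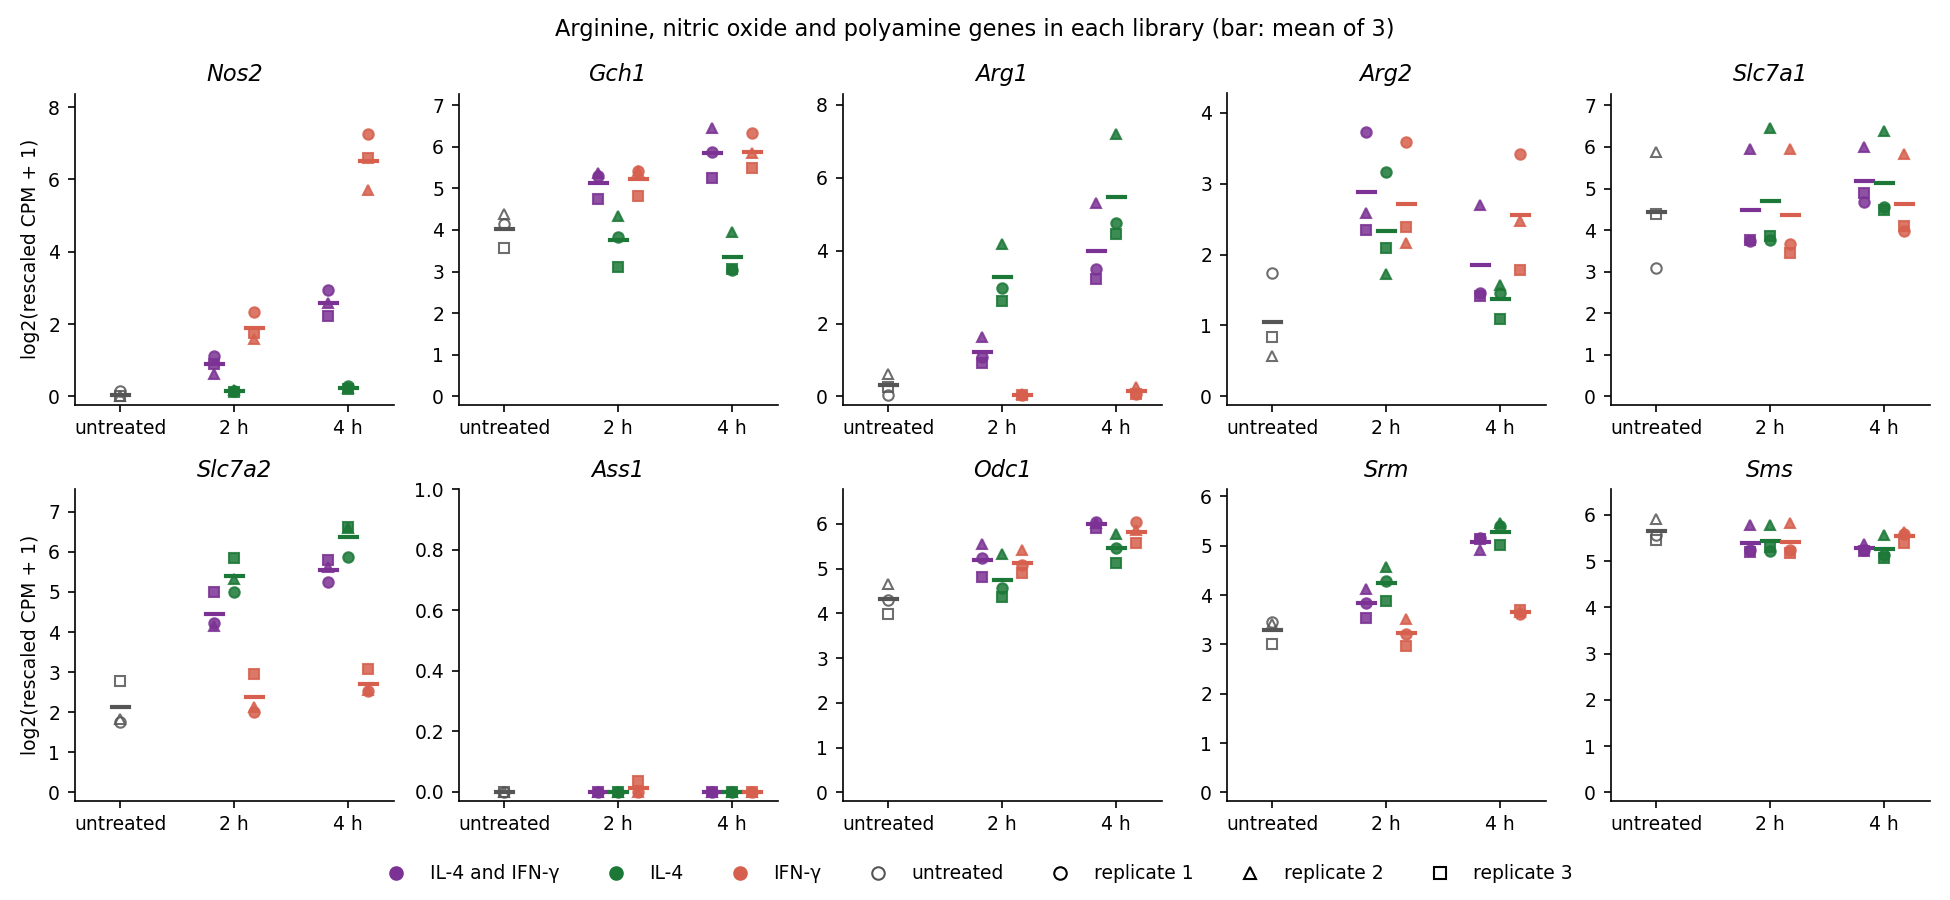
Log2(rescaled CPM + 1) of each gene in each of the 21 libraries, with untreated cells, 2 h and 4 h along the x axis, color for treatment, marker shape for replicate and a bar for the mean of 3. Nos2 is high with IFN-γ at 4 h, Arg1 and Slc7a2 with IL-4, and Ass1 lies at or near 0 throughout.

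Nos2, the inducible nitric oxide synthase (chromosome 11, 78920787 to 78960254, plus strand, GRCm38), rose steeply with IFN-γ and far less with the combination. At 2 h it stood at 4.03, 2.02 and 2.36 CPM with IFN-γ and at 1.19, 0.544 and 0.870 with the combination. At 4 h it stood at 152, 51.2 and 95.3 CPM with IFN-γ and at 6.76, 4.98 and 3.68 with the combination, against 0.109, 0 and 0 in untreated cells. Every IFN-γ library lay above every combination library of its time, and every combination library above the untreated ones. The log2 changes against untreated cells, taken on log2(CPM + 1), were 1.84 ± 0.29 at 2 h and 6.47 ± 0.29 at 4 h with IFN-γ (SE; limma adjusted p = 0.000169 and 5.35e-11). They were 0.84 ± 0.29 at 2 h and 2.54 ± 0.29 at 4 h with the combination (adjusted p = 0.0454 and 1.91e-06). The added 1 understates such changes when a control is near 0: edgeR on the recovered reads gave 11.41 for IFN-γ at 4 h, a value that rests on the 4 reads of untreated replicate 1. With IL-4 alone Nos2 stayed between 0.0943 and 0.219 CPM, with log2 changes of 0.10 ± 0.29 at 2 h and 0.19 ± 0.29 at 4 h that were not called by limma (adjusted p = 0.965 and 0.718), although DESeq2 called the second (adjusted p = 0.022).

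The small call for Nos2 with the combination at 2 h was the least stable of the set. It was lost without any of 14 of the 21 single libraries, including each untreated one and combination replicates 1 and 3, with adjusted p up to 0.165. Both count models called it, with edgeR's adjusted p at 0.000195.

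Gch1 encodes GTP cyclohydrolase I, the first enzyme of tetrahydrobiopterin synthesis (chromosome 14, 47153895 to 47189413, minus strand). It rose with IFN-γ and to a similar level with the combination. At 2 h it stood at 41.8, 41.7 and 27.0 CPM with IFN-γ and at 38.2, 40.5 and 25.9 with the combination. At 4 h it stood at 79.4, 56.3 and 43.6 CPM with IFN-γ and at 57.3, 86.2 and 37.0 with the combination, against 16.7, 19.8 and 10.9 in untreated cells. All 12 of these treated libraries exceeded all 3 untreated ones, and the IFN-γ and combination libraries overlapped at both times. The log2 changes were 1.18 ± 0.36 and 1.85 ± 0.36 with IFN-γ at 2 h and 4 h (limma adjusted p = 0.0305 and 0.000634), and 1.11 ± 0.36 and 1.82 ± 0.36 with the combination (adjusted p = 0.0363 and 0.000627). With IL-4 the libraries held 13.2, 19.1 and 7.64 CPM at 2 h and 7.21, 14.5 and 7.40 at 4 h. They overlapped the untreated libraries, and the log2 changes of -0.28 ± 0.36 and -0.68 ± 0.36 were not called (adjusted p = 0.855 and 0.212). A fit that took the replicate number as a block called the decrease at 4 h (adjusted p = 0.00531), but not on deposited CPM (adjusted p = 0.348).

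The 2 h calls of Gch1 rested on single libraries. Leaving out untreated replicate 1 or 3, or IFN-γ replicate 1 or 2, ended the IFN-γ call (limma adjusted p = 0.0584 to 0.146). Leaving out untreated replicate 1 or 3, or combination replicate 1 or 2, ended the combination call (adjusted p = 0.0639 to 0.165).

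Arg1, the cytosolic arginase (chromosome 10, 24915221 to 24927484, minus strand), rose with IL-4 and, at 4 h, with the combination. With IL-4 it stood at 6.94, 17.1 and 5.19 CPM at 2 h and at 25.9, 146 and 21 at 4 h. With the combination it stood at 1.11, 2.08 and 0.891 CPM at 2 h and at 10.2, 38.7 and 8.28 at 4 h. IFN-γ libraries held between 0.0248 and 0.193 CPM at both times, and untreated libraries 0.0271, 0.539 and 0.201. IL-4 and combination libraries lay above every untreated library, and IFN-γ libraries overlapped the untreated ones. The log2 changes were 2.96 ± 0.60 and 5.16 ± 0.60 with IL-4 at 2 h and 4 h (limma adjusted p = 0.00388 and 8.95e-06) and 3.70 ± 0.60 with the combination at 4 h (adjusted p = 9.83e-05). At 2 h the combination change of 0.90 ± 0.60 was not called (adjusted p = 0.363), although DESeq2 called it (adjusted p = 0.0357). The IL-4 call at 2 h was lost when replicate 1 or replicate 3 of every group was left out (adjusted p = 0.131 and 0.0857). Replicate 2 was the highest library of Arg1 in 7 of the 7 groups.

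Arg2, the mitochondrial arginase (chromosome 12, 79130777 to 79156301, plus strand), rose with IFN-γ, where Arg1 did not. It stood at 11, 3.45 and 4.22 CPM with IFN-γ at 2 h and at 9.63, 4.55 and 2.43 at 4 h, against 2.33, 0.479 and 0.792 in untreated cells. Combination libraries held 12.2, 5.0 and 4.07 CPM at 2 h and 1.75, 5.46 and 1.66 at 4 h. IL-4 libraries held 7.97, 2.31 and 3.25 CPM at 2 h and 1.74, 1.97 and 1.12 at 4 h. The IFN-γ libraries of both times and the 2 h combination libraries lay above every untreated library, and the libraries of the other groups overlapped them. Arg2 overlaps Vti1b on the opposite strand, and no source used here says whether counting used strand, so reads of the pair may not be told apart. The log2 changes were 1.66 ± 0.52 and 1.51 ± 0.52 with IFN-γ (limma adjusted p = 0.0348 and 0.0303), and 1.83 ± 0.52 and 0.81 ± 0.52 with the combination (adjusted p = 0.0164 and 0.232). With IL-4 they were 1.28 ± 0.52 and 0.32 ± 0.52 and were not called (adjusted p = 0.180 and 0.747), although the fit with the replicate number as a block called the first (adjusted p = 0.0167).

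Each of the 3 Arg2 calls was lost without untreated replicate 2 or 3, and without replicate 1 of its treated group (limma adjusted p = 0.0602 to 0.172). The 2 h IFN-γ call was also lost without IFN-γ replicate 3 (adjusted p = 0.0535), and the 4 h call without IFN-γ replicate 2 (adjusted p = 0.0527). With untreated replicate 1 as the lone control the log2 changes were 0.97, 0.82 and 1.15, none of them called.

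Slc7a2, the cationic amino acid transporter CAT2 (chromosome 8, 40862396 to 40922308, plus strand), rose with IL-4 and with the combination. With IL-4 it stood at 30.9, 38.7 and 56.9 CPM at 2 h and at 57.2, 95.8 and 97.8 at 4 h. With the combination it stood at 17.8, 16.7 and 31.2 CPM at 2 h and at 37.1, 48.3 and 54.5 at 4 h, against 2.39, 2.58 and 5.83 in untreated cells. All 12 of these libraries lay above the untreated ones. The log2 changes were 3.26 ± 0.34 and 4.24 ± 0.34 with IL-4 (limma adjusted p = 4.61e-06 and 1.09e-07) and 2.34 ± 0.34 and 3.43 ± 0.34 with the combination (adjusted p = 5.37e-05 and 3.63e-07). With IFN-γ the libraries held between 3.03 and 7.41 CPM over both times and overlapped the untreated ones. Those changes were 0.24 ± 0.34 and 0.59 ± 0.34 (adjusted p = 0.768 and 0.179), the second called with the replicate number as a block (adjusted p = 0.00184).

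Slc7a1, the transporter CAT1 (chromosome 5, 148327410 to 148399904, minus strand), differed more between replicate numbers than between treatments. Replicates 1 and 3 held between 7.46 and 28.6 CPM in all 7 groups, and replicate 2 held between 55.6 and 86.7. Replicate 2 was thus the highest library in 7 of 7 groups, by a mean of 1.36 above its group mean on the log2(CPM + 1) scale. No contrast of Slc7a1 was called over all 21 libraries without a block, where each change against untreated cells had an SE of 0.92. With the replicate number as a block it was called higher with IL-4 at 4 h (log2 change 0.70, adjusted p = 0.0354) and with the combination at 4 h (0.74, adjusted p = 0.0186). Without replicate 2 of every group, limma called it higher with the combination at 4 h against untreated cells (1.04, adjusted p = 0.0217) and against 2 h (1.03, adjusted p = 0.0409).

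**Figure D2:**
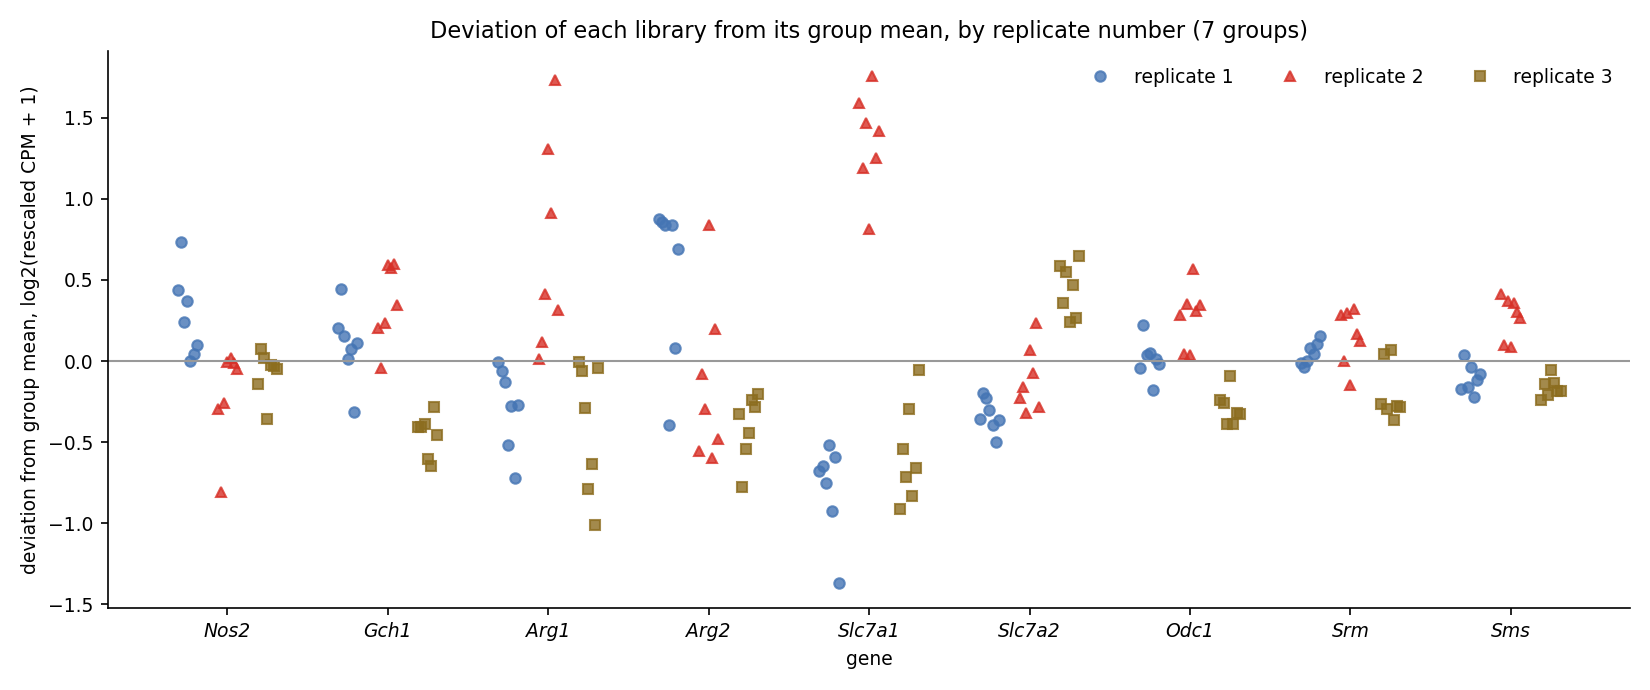
Deviation of each library from the mean of its group of 3 on the log2(rescaled CPM + 1) scale for the 9 tested genes, by replicate number, with 1 point for each of the 7 groups. Replicate 2 is the highest library of Slc7a1, Arg1 and Sms in 7 of 7 groups and replicate 3 that of Slc7a2 in 7 of 7.

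Replicate numbers deviated together across groups, and the block treats them as pairing the libraries. The main fit leaves this pairing out, so its SE, intervals and calls hold the spread between replicate numbers. Slc7a2 was highest in replicate 3 in 7 of 7 groups (mean deviation 0.44), and Odc1 was lowest in replicate 3 in 7 of 7 (-0.29). Sms was highest in replicate 2 in 7 of 7 (0.27). Nos2 was highest in replicate 1 in 6 of 7 (0.28). What the replicate numbers share was not tested.

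Ass1 encodes argininosuccinate synthase, which starts the return of citrulline to arginine (chromosome 2, 31470207 to 31520672, plus strand). It had 1 read in all 21 libraries together, in IFN-γ 2 h replicate 3, of 937759563 reads in total. It was at 0 in the other 20 libraries, where 3 reads, the limit that a count of 0 allows for counting error, correspond to between 0.0403 and 0.180 rescaled CPM per library. Asl encodes argininosuccinate lyase, the next enzyme. It averaged between 48.1 and 53.2 CPM in the 6 treated groups and 53.9 CPM in untreated cells, and no contrast against untreated cells was called. Asl was singled out as the next step of the route, after its values had been seen.

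Odc1, ornithine decarboxylase (chromosome 12, 17544794 to 17551505, plus strand), rose with both cytokines. With IL-4 it stood at 22.9, 38.9 and 19.6 CPM at 2 h and at 43.4, 53.5 and 34.1 at 4 h. With IFN-γ it stood at 33.0, 41.7 and 28.7 CPM at 2 h and at 65.3, 57.5 and 46.4 at 4 h. With the combination it stood at 36.6, 45.6 and 26.9 CPM at 2 h and at 64.9, 64.4 and 58.7 at 4 h, against 18.7, 24.4 and 14.9 in untreated cells. Every treated library except those of IL-4 at 2 h lay above the untreated ones. The log2 changes at 4 h were 1.14 ± 0.25 with IL-4, 1.51 ± 0.25 with IFN-γ and 1.67 ± 0.25 with the combination (limma adjusted p = 0.00306, 0.000134 and 4.09e-05). At 2 h they were 0.81 ± 0.25 with IFN-γ and 0.87 ± 0.25 with the combination (adjusted p = 0.0307 and 0.0169). The 2 h change with IL-4 was 0.43 ± 0.25 and not called (adjusted p = 0.423), but it was called on the CPM as deposited (0.85, adjusted p = 0.0421) and in the blocked fit (adjusted p = 0.0187). Leaving out untreated replicate 1 or 3, or IFN-γ replicate 1 or 2, ended the IFN-γ call at 2 h (adjusted p = 0.0644 to 0.151). Leaving out untreated replicate 3, or combination replicate 1 or 2, ended that of the combination (adjusted p = 0.0523 to 0.0944).

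Srm, spermidine synthase (chromosome 4, 148591503 to 148594993, plus strand), rose with IL-4 but was not called with IFN-γ. With IL-4 it stood at 18.4, 22.6 and 13.7 CPM at 2 h and at 41.0, 42.9 and 31.2 at 4 h. With the combination it stood at 13.2, 16.5 and 10.6 CPM at 2 h and at 34.4, 29.2 and 34.1 at 4 h, against 9.93, 9.70 and 7.06 in untreated cells. IFN-γ libraries held between 6.77 and 10.4 CPM at 2 h and between 11.2 and 11.9 at 4 h. All IL-4 and combination libraries lay above the untreated ones, as did those of IFN-γ at 4 h. The log2 changes were 0.95 ± 0.19 and 1.99 ± 0.19 with IL-4 (limma adjusted p = 0.00384 and 1.19e-06) and 1.77 ± 0.19 with the combination at 4 h (adjusted p = 1.26e-06). At 2 h the combination change of 0.54 ± 0.19 fell short (adjusted p = 0.0552), and it was called on the CPM as deposited (adjusted p = 0.0215) and in the blocked fit (adjusted p = 0.00362). With IFN-γ the changes were -0.07 ± 0.19 and 0.36 ± 0.19 (adjusted p = 0.915 and 0.158), the second called with the block (adjusted p = 0.0293) but not with the block on deposited CPM (adjusted p = 0.0828).

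Sms, spermine synthase (chromosome X, 157443855 to 157492287, minus strand), was not called in any contrast over all 21 libraries without a block. It ranged over 32.5 to 55.7 CPM in treated libraries and 43.1 to 59.0 in untreated ones, which overlap. The log2 changes against untreated cells lay between -0.39 and -0.11. The blocked fit called them at 4 h with IL-4 (-0.39, adjusted p = 0.00258), and with the combination at 2 h (-0.25, adjusted p = 0.0453) and at 4 h (-0.37, adjusted p = 0.00244). On the CPM as deposited the IL-4 change at 4 h was 0.08, and the combination changes were 0.08 at 2 h and -0.16 at 4 h, so the direction turned in 2 of these 3. Without replicate 2 of every group, and without a block, limma called Sms lower than in untreated cells with IL-4 at 4 h, IFN-γ at 2 h and the combination at both times (adjusted p = 0.00592 to 0.0276). It then also called Sms lower with IL-4 than with IFN-γ at 4 h (-0.39, adjusted p = 0.00438) and higher at 4 h than at 2 h with IFN-γ (0.29, adjusted p = 0.0365). The annotation also holds a pseudogene, Sms-ps, and reads of the pair may be split by the counting.

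**Figure D3:**
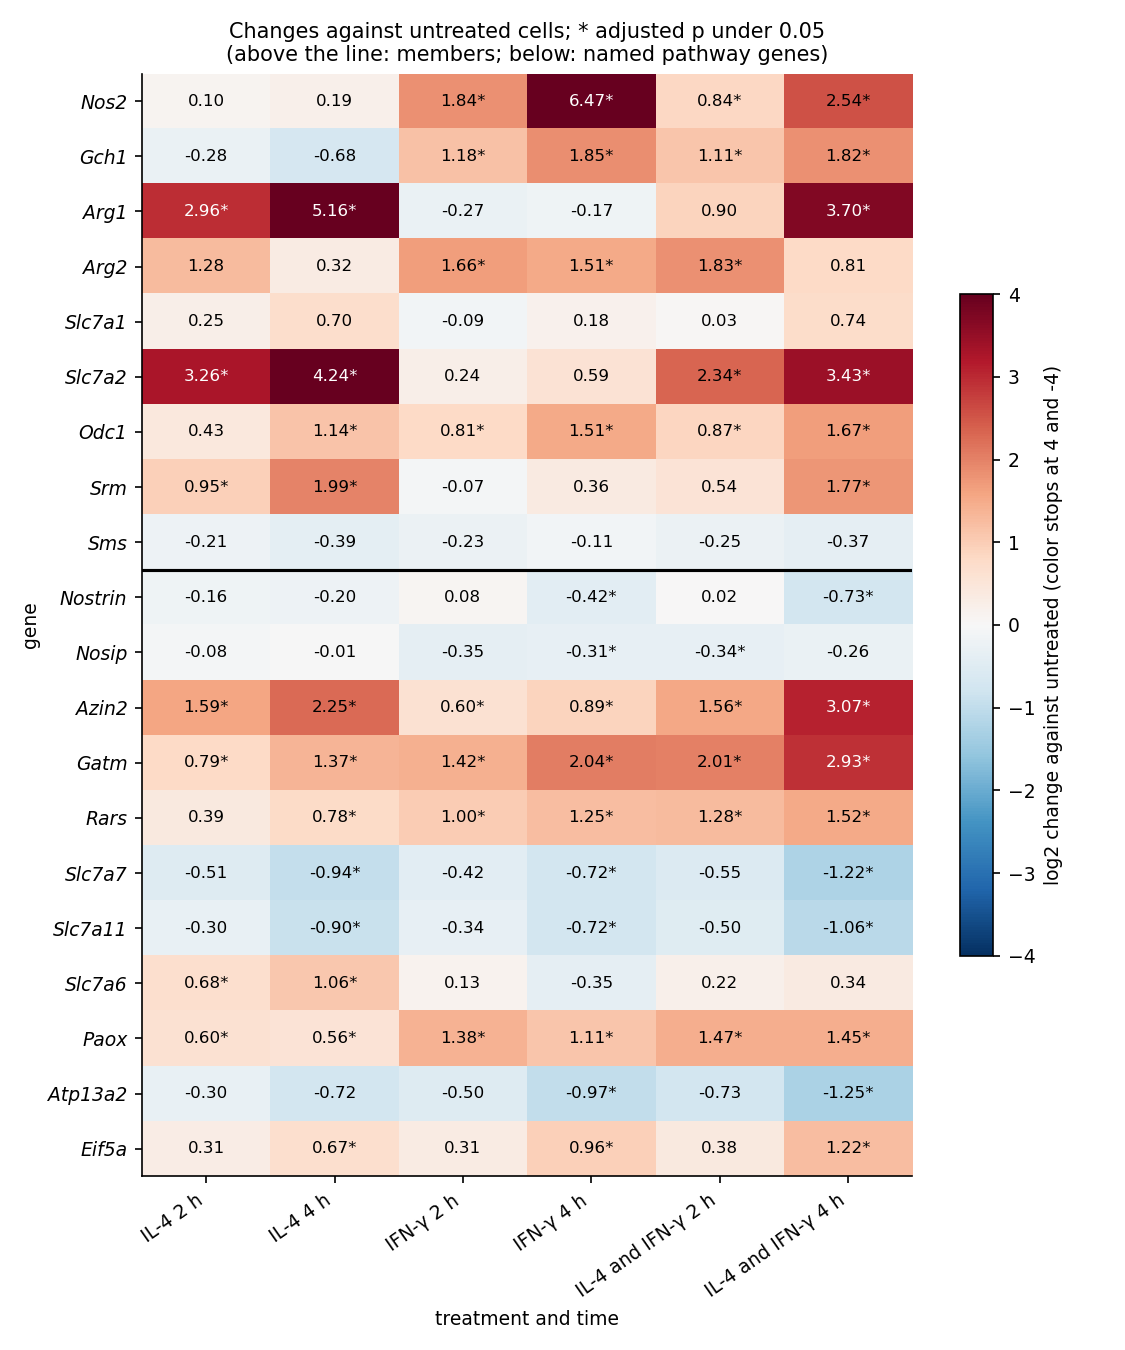
Log2 change against untreated cells, by treatment and time, for the 9 tested members above the line and 11 named pathway genes below it. An asterisk marks an adjusted p under 0.05, and the color stops at 4 and -4. Nos2 and Gch1 are marked with IFN-γ and the combination, while Arg1, Slc7a2 and Srm are marked with IL-4 at both times.

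Compared directly, IL-4 and IFN-γ separated 5 of the 9 members at each time. At 2 h 3 members were higher with IL-4, where 9.02% of all tested genes were higher, and 2 were lower, where 10.4% were lower. At 4 h the same counts held, where 20.3% of all genes were higher and 21.6% lower. At both times Arg1, Slc7a2 and Srm were higher and Nos2 and Gch1 lower with IL-4. The log2 differences of IL-4 minus IFN-γ at 4 h were 5.33 ± 0.60 for Arg1, 3.65 ± 0.34 for Slc7a2, 1.64 ± 0.19 for Srm, -2.53 ± 0.36 for Gch1 and -6.27 ± 0.29 for Nos2 (limma adjusted p = 2.57e-05 or lower). At 2 h the difference for Gch1, -1.46 ± 0.36 (adjusted p = 0.00769), was no longer called without IL-4 replicate 3 (adjusted p = 0.0533). Arg2 differed by -1.19 ± 0.52 at 4 h, not called (adjusted p = 0.0803) except with the replicate number as a block (adjusted p = 0.00993), with DESeq2 (adjusted p = 0.0208), and without IFN-γ replicate 3. The block also called Odc1 lower with IL-4 at both times (adjusted p = 0.0262 and 0.0178) and Sms at 4 h (adjusted p = 0.0143). In the block on deposited CPM none of these 3 was called, with differences of -0.26 and -0.01 for Odc1 and 0.07 for Sms, whose direction turned. On deposited CPM 30.4% of all genes were higher with IL-4 at 4 h and 11.1% lower.

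**Figure D4:**
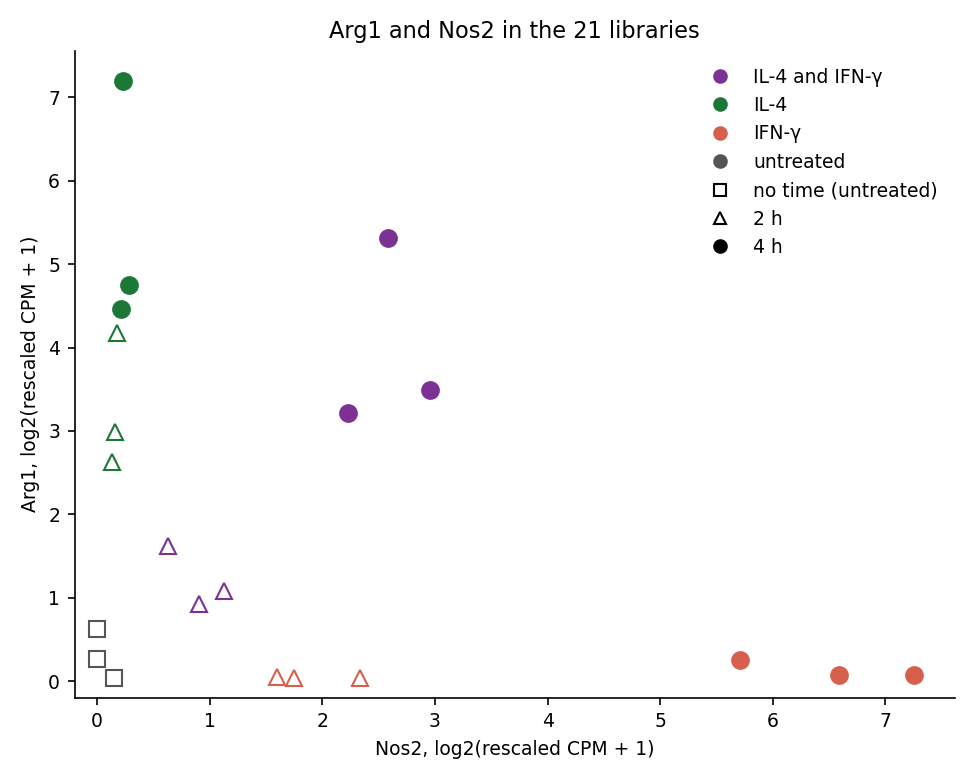
Arg1 against Nos2 in each of the 21 libraries, both as log2(rescaled CPM + 1), with color for treatment and marker for time. IL-4 libraries lie along the Arg1 axis, IFN-γ libraries along the Nos2 axis, and the 3 combination libraries of 4 h lie away from both axes.

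The ratio of Arg1 to Nos2 RNA, which leaves out Arg2, placed the combination between the single cytokines. It is given here as the log2 ratio of Arg1 to Nos2 CPM, 1 added to each, as a description. With the combination at 4 h it was 0.53, 2.73 and 0.99, with IL-4 at 4 h 4.46, 6.97 and 4.25, and with IFN-γ at 4 h -7.18, -5.45 and -6.51. Untreated libraries gave -0.11, 0.62 and 0.26. At 4 h the libraries of the 3 treatments did not overlap. Nos2 was near 0 with IL-4 and Arg1 near 0 with IFN-γ, so this restates the values of each gene and adds no support. The combination libraries of 4 h overlapped the untreated ones in this ratio. In untreated libraries both genes were near 0, so the added 1 sets that ratio near 0.

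With IL-4 added to IFN-γ, Nos2 was lower at 4 h, Slc7a2 was higher at both times, and Arg1 and Srm were higher at 4 h. At 2 h 1 member was higher with the combination than with IFN-γ, where 2.22% of all tested genes were higher and 0.782% lower. At 4 h 3 were higher and 1 was lower, where 5.9% of all genes were higher and 5.98% lower. On deposited CPM the shares were 1.42% higher and 0.237% lower at 2 h, and 3.93% higher and 2.21% lower at 4 h. Nos2 was the lower one at 4 h, by -3.93 ± 0.29 on the log2 scale (limma adjusted p = 9.75e-08), with 6.76, 4.98 and 3.68 CPM against 152, 51.2 and 95.3. At 2 h its difference of -1.0 ± 0.29 was not called (adjusted p = 0.0799), but it was called with the block (adjusted p = 0.00407), on deposited CPM (adjusted p = 0.0423), with a pseudocount of 0.25, with DESeq2, and without either IFN-γ 4 h replicate 1 or 2. Slc7a2 was higher by 2.09 ± 0.34 and 2.84 ± 0.34 at 2 h and 4 h (adjusted p = 0.00122 and 2.04e-05). At 4 h Arg1 was higher by 3.87 ± 0.60 and Srm by 1.41 ± 0.19 (adjusted p = 0.000318 and 8.46e-05). At 2 h Arg1 differed by 1.17 ± 0.60 and was not called (adjusted p = 0.658), although edgeR and DESeq2 called it (adjusted p = 0.0209 and 0.000107).

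Gch1, whose product starts the synthesis of the synthase's cofactor, was not called between the combination and IFN-γ. Its difference between the combination and IFN-γ was -0.07 ± 0.36 at 2 h, with a 95% interval of -0.84 to 0.69, and -0.03 ± 0.36 at 4 h, with an interval of -0.80 to 0.74. For Nos2 the interval at 4 h was -4.54 to -3.32. Odc1 differed by 0.06 ± 0.25 and 0.16 ± 0.25 (limma adjusted p = 1.00 and 0.830), with intervals of -0.47 to 0.59 and -0.37 to 0.69. With the block, Srm at 2 h was also called higher (adjusted p = 0.00561) and Sms at 4 h lower (adjusted p = 0.0417), neither of them in the block on deposited CPM.

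Adding IFN-γ to IL-4 raised Gch1 and, at 4 h, Nos2. At 2 h 1 member was higher and 1 lower with the combination than with IL-4, where 8.68% of all tested genes were higher and 6.13% lower. At 4 h 2 were higher and none lower, where 15.7% of all genes were higher and 15.2% lower. On deposited CPM the shares at 4 h were 8.59% higher and 18.5% lower. Gch1 was higher by 1.38 ± 0.36 and 2.50 ± 0.36 (limma adjusted p = 0.0147 and 5.32e-05), the 2 h call being lost without IL-4 replicate 3 or combination replicate 1 or 2 (adjusted p = 0.0569 to 0.0924). Nos2 was higher by 2.35 ± 0.29 at 4 h (adjusted p = 8.45e-06). At 2 h its difference was 0.73 ± 0.29 (adjusted p = 0.107), called with the block (adjusted p = 0.0135), with edgeR and with DESeq2.

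Arg1 was lower with the combination than with IL-4 at 2 h, with 1.11, 2.08 and 0.891 CPM against 6.94, 17.1 and 5.19, a log2 difference of -2.06 ± 0.60 (limma adjusted p = 0.0276). That call was lost without IL-4 replicate 1 or 2 or combination replicate 1 or 3 (adjusted p = 0.0543 to 0.125). At 4 h the difference was -1.46 ± 0.60, with overlapping libraries and no call (adjusted p = 0.0778). It was called with the block (adjusted p = 0.00497), on deposited CPM (adjusted p = 0.0417), and without IL-4 replicate 3 or combination replicate 2. Slc7a2 differed by -0.93 ± 0.34 and -0.81 ± 0.34 (adjusted p = 0.0791 and 0.0809), called at both times with the block (adjusted p = 7.88e-05 and 0.000157). Srm differed by -0.41 ± 0.19 and -0.22 ± 0.19 (adjusted p = 0.206 and 0.434), the first called with the block (adjusted p = 0.0279). Odc1 differed by 0.44 ± 0.25 and 0.53 ± 0.25 (adjusted p = 0.326 and 0.123), both called with the block (adjusted p = 0.0134 and 0.00198). In the block on deposited CPM the Srm call and both Odc1 calls were lost (adjusted p = 0.0987 to 0.279).

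The interaction asks whether the change with the combination departs from the sum of the single changes on the log2 scale. At 2 h no member was called, where 0.0791% of all tested genes were called above the sum and 0.29% below it. edgeR and DESeq2 also called 0, and 2 members (Nos2 and Slc7a2) had an unadjusted p under 0.05. At 4 h 1 member was called below the sum, where 0.738% of all genes were called above and 0.967% below. On deposited CPM 0.00879% were above and 0.387% below at 2 h, and 0.0703% above and 1.56% below at 4 h. It was Nos2, whose change of 2.54 with the combination stood against a sum of 6.66, an interaction of -4.12 ± 0.41 (limma adjusted p = 2.59e-05). No single library ended that call, but leaving out replicate 3 of every group did (adjusted p = 0.0662).

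**Figure D5:**
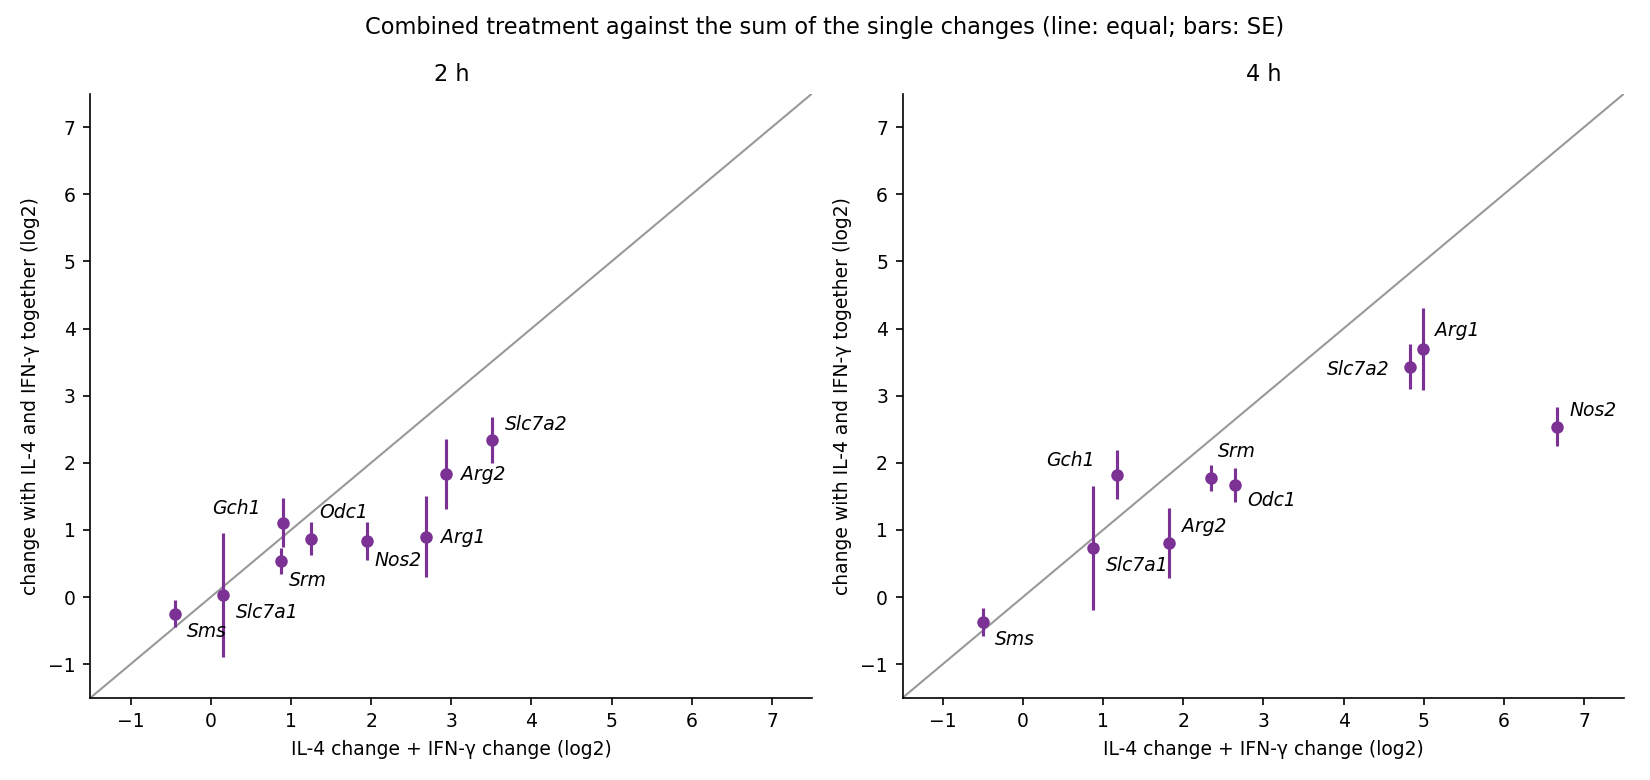
Log2 change with the combination against untreated cells (y axis, bars give the SE) against the sum of the IL-4 and IFN-γ changes (x axis) for the 9 tested members at 2 h and 4 h. Nos2 lies farthest below the line of equality at 4 h, and Gch1 lies above it at both times in rescaled CPM.

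Of the other members, Slc7a2 had interactions of -1.17 ± 0.47 at 2 h and -1.40 ± 0.47 at 4 h, and Odc1 one of -0.98 ± 0.35 at 4 h, none of them called (limma adjusted p = 0.910, 0.196 and 0.238). All 3 were called with the replicate number as a block (adjusted p = 0.00315, 0.000234 and 0.00162). Arg1 had -1.29 ± 0.85 at 4 h, with an interval of -3.10 to 0.51. Gch1 had 0.65 ± 0.51, with an interval of -0.44 to 1.74.

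In the fit over all 21 libraries without a block, every member called between 4 h and 2 h was higher at 4 h. Untreated cells carry no time in the labels, so longer treatment and time in culture cannot be told apart here. With IL-4 only Srm was called, 1.05 ± 0.19 higher at 4 h (limma adjusted p = 0.00582), where 1.27% of all tested genes were higher and 1.55% lower. With IFN-γ only Nos2 was called, 4.63 ± 0.29 higher (adjusted p = 3.87e-08), where 9.89% of all genes were higher and 7.77% lower. With the combination 5 members were higher at 4 h, where 9.41% of all genes were higher and 8.89% lower. On deposited CPM the shares were 0.439% higher and 0.22% lower with IL-4, 3.15% and 4.89% with IFN-γ, and 3.31% and 5.15% with the combination. They were Nos2 (1.70 ± 0.29), Arg1 (2.80 ± 0.60), Slc7a2 (1.09 ± 0.34), Odc1 (0.80 ± 0.25) and Srm (1.23 ± 0.19), with adjusted p of 0.0346 or lower. On deposited CPM the Odc1 and Slc7a2 calls were lost (adjusted p = 0.142 and 0.105), and edgeR lost both as well. They were also lost without single libraries: Odc1 without combination 2 h replicate 1 or 3 or any 4 h replicate (adjusted p = 0.0627 to 0.158), and Slc7a2 without 2 h replicate 1 or 2 or 4 h replicate 2 or 3 (adjusted p = 0.0794 to 0.106). Leaving out replicate 1 or replicate 3 of every group ended the Srm call with IL-4 and the Arg1 call with the combination. Arg1 with IL-4 was 2.20 ± 0.60 higher at 4 h without a call (limma adjusted p = 0.0642), and the block called it (adjusted p = 0.000916).

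The block called further members between the times. With IL-4 these were Slc7a2 and Odc1 (adjusted p = 0.000179 and 0.000933), and with IFN-γ Gch1, Odc1 and Srm (adjusted p = 0.00657, 0.000311 and 0.0169). With the combination Gch1 and Slc7a1 were called higher (adjusted p = 0.00413 and 0.0340) and Arg2 lower at 4 h (-1.03 ± 0.52, adjusted p = 0.0311). In the block on deposited CPM all 3 of the IFN-γ calls were lost (adjusted p = 0.0502 to 0.427), as was that of Slc7a1 (adjusted p = 0.0602). That fit also called Arg2 lower at 4 h than at 2 h with IL-4 (limma adjusted p = 0.0289).

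Per kilobase of annotated exon, the order of levels differed between groups. Values are mean rescaled CPM per kb ± SD over 3 libraries, a level and not a difference. With IL-4 at 4 h Arg1 stood at 43.5 ± 48.0, Srm at 28.7 ± 4.67, Odc1 at 19.8 ± 4.39, Sms at 10.1 ± 1.97 and Slc7a2 at 9.65 ± 2.64, while Nos2 stood at 0.0426 ± 0.00748. With IFN-γ at 4 h Odc1 stood at 25.5 ± 4.29, Nos2 at 23.1 ± 11.7 and Gch1 at 21.5 ± 6.55, which do not differ beyond their spread, and Arg1 stood at 0.0682 ± 0.0541. With the combination at 4 h Odc1 stood at 28.4 ± 1.55, Srm at 24.3 ± 2.20 and Gch1 at 21.7 ± 8.91, with Arg1 at 12.9 ± 11.5 and Nos2 at 1.20 ± 0.360. In untreated cells Sms led with 13.3 ± 2.28, followed by Odc1 with 8.76 ± 2.16, Srm with 6.65 ± 1.19 and Gch1 with 5.70 ± 1.62. The spread of the single Arg1 libraries with IL-4 at 4 h spans the levels of Srm and Odc1.

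Other genes of these pathways came from 4 lists, which, like the members, were chosen with earlier results of these data known. Over all tested genes at 4 h, 12% rose and 10.1% fell with IL-4, 21.3% rose and 17.8% fell with IFN-γ, and 22.8% rose and 19.8% fell with the combination. A list count near these shares is no result about the list. A list of the urea cycle, arginine, proline and creatine, which also held Azin2 and Rars, had 13 tested genes. Of these, 4 rose with IL-4 at 4 h, 3 rose and 2 fell with IFN-γ at 4 h, and 4 rose and 2 fell with the combination at 4 h. Gatm encodes the arginine to glycine amidinotransferase of creatine synthesis. It averaged 408 ± 55.9 CPM with the combination at 4 h, 137 ± 17 with IL-4, 220 ± 31.9 with IFN-γ and 52.6 ± 8.25 in untreated cells (SD, n = 3 each), and its log2 change with the combination was 2.93 ± 0.15 (limma adjusted p = 2.36e-10). Azin2 encodes antizyme inhibitor 2. It averaged 17.2 ± 1.52 CPM with the combination at 4 h, 9.35 ± 0.843 with IL-4, 3.04 ± 0.691 with IFN-γ and 1.16 ± 0.101 in untreated cells, with a log2 change of 3.07 ± 0.12 with the combination (adjusted p = 1.99e-11). Gatm and Azin2 were called higher in all 6 comparisons with untreated cells, and Rars, the arginyl-tRNA synthetase, in 5 of the 6. Rars changed by 1.52 ± 0.24 with the combination at 4 h (adjusted p = 8.24e-05).

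Among 9 tested amino acid carriers, 1 rose and 2 fell with IL-4 at 4 h, 2 fell with IFN-γ at 4 h and 4 fell with the combination at 4 h, where 10.1%, 17.8% and 19.8% of all genes fell. Slc7a6, a carrier of cationic and neutral amino acids, rose with IL-4 by 0.68 ± 0.14 and 1.06 ± 0.14 at 2 h and 4 h (limma adjusted p = 0.00399 and 2.73e-05). Slc7a7, which works in the same exchange, changed by -1.22 ± 0.24 with the combination at 4 h (adjusted p = 0.000488). The cystine carrier Slc7a11 changed by -1.06 ± 0.24 there (adjusted p = 0.00153). Both also fell with each single cytokine at 4 h, but on deposited CPM those 4 calls were lost (adjusted p = 0.0688 to 0.182).

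Of 17 tested polyamine and hypusine genes, 7 rose with IL-4 at 4 h, 3 rose and 2 fell with IFN-γ at 4 h, and 5 rose and 2 fell with the combination at 4 h, where 12%, 21.3% and 22.8% of all genes rose. Paox, the peroxisomal polyamine oxidase, was called higher in all 6 comparisons with untreated cells, by 1.47 ± 0.14 with the combination at 2 h and 1.45 ± 0.14 at 4 h (limma adjusted p = 7.51e-07 and 3.95e-07). Eif5a, the factor that carries hypusine made from spermidine, changed by 1.22 ± 0.22 with the combination at 4 h (adjusted p = 0.000246). The polyamine exporter of lysosomes Atp13a2 changed by -1.25 ± 0.26 there (adjusted p = 0.00091). Of 8 tested genes of nitric oxide and tetrahydrobiopterin, none rose in any comparison with untreated cells. Nostrin, a synthase trafficking protein, fell with the combination at 4 h by 0.73 on the log2 scale (adjusted p = 1.86e-05). Nosip fell with the combination at 2 h by 0.34, its largest called change, and with IFN-γ at 4 h by 0.31 (adjusted p = 0.0459). The IFN-γ call was lost on deposited CPM (adjusted p = 0.553).

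Genes with the most similar pattern over the 7 group means of log2(CPM + 1) were sought among 2852 candidates, as a description that rests on the same libraries. For Nos2 they were Il27, Rgs9 and Nfkb2 (r = 0.993, 0.993 and 0.990), and for Gch1 Fbxw17, Oas3 and Oasl2 (r = 0.999, 0.997 and 0.997). For Arg1 they were Nolc1, Clta and Inadl (r = 0.996, 0.992 and 0.991), and for Slc7a2 Ceacam19, Sys1 and Glrx (r = 0.997, 0.994 and 0.993). Those of Odc1 were Spata5, Manf and Capza2 (r = 0.994, 0.988 and 0.986), and those of Srm Gspt1, Ctu2 and Ap2m1 (r = 0.996, 0.993 and 0.992). Trib1 came first for Arg2 (r = 0.993), Tbxas1 for Slc7a1 (r = 0.987) and Zcchc24 for Sms (r = 0.985).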

How the data were processed

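Poly(A) RNA was sequenced, and the deposited table holds CPM (reads scaled to library size) for each gene, made by the authors. Per the submitters' processing notes, TopHat2 2.1.0, HTSeq and edgeR were used, with build mm10 or GRCm38, and whether counting used strand is not given in the sources used here. 100% of the deposited CPM values came out as whole reads within 0.01 read, so depth was recovered. Totals of 28920801 to 80028327 reads limit the precision of low genes, and floors of 3 reads cover counting error only.

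CPM was divided by a median-ratio factor for each library. The 11380 genes that reached 1 CPM in 3 or more libraries were fitted on log2(CPM + 1) with limma 3.58.1 in R 4.3.3, in 1 fit over all 7 groups of 3 with 17 contrasts and 14 residual degrees of freedom. Adjusted p-values are Benjamini-Hochberg values over all 11380 genes within a contrast. The fit was tested on simulated reads that held no deviation shared by replicate number, so that test does not cover the pairing described below. Alternatives were CPM as deposited, TMM, a pseudocount of 0.25, no filter, leaving out libraries, untreated replicate 1 as lone control, edgeR 4.0.16 and DESeq2 1.42.0 on the recovered reads, and the replicate number as a block.

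The replicate numbers come from the labels. Deviations from the group means correlated at 0.539 to 0.951 over 63 pairs of libraries with the same number and at -0.859 to 0.369 over 126 pairs with different numbers. The fit with the block therefore treats the numbers as pairing the libraries. The main fit has no block and leaves this pairing out.

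All 10 members are named. Of the other pathway genes, up to 3 for each list are named, those with the largest log2 change among called genes. Similar genes had a highest group mean of at least 5 CPM and a log2 span of at least 1. The members and lists were chosen with earlier results of these data known. Gene positions are from GENCODE on GRCm38, and promoters from RefSeq. Figures were drawn with Python 3.11.15.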

Additional observations from a re-analysis of the deposited data

Results flagged for a closer look

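Each treatment was tested directly as 4 h minus 2 h on the log2 scale in limma, with adjustment over all genes, n = 3 libraries a group. The change against untreated cells differed between 4 h and 2 h in 7 cases. For IL-4 it was larger at 4 h for Srm, by 1.05 (adjusted p = 0.00582). For IFN-γ it was larger at 4 h for Nos2, by 4.63 (adjusted p = 3.87e-08). For the combination it was larger at 4 h for Arg1 by 2.80 (adjusted p = 0.00363), for Nos2 by 1.70 (adjusted p = 0.00053), for Slc7a2 by 1.09 (adjusted p = 0.0313), for Odc1 by 0.80 (adjusted p = 0.0346) and for Srm by 1.23 (adjusted p = 0.000279). Of 33 alternative settings, 10 lost the Odc1 call and 9 the Slc7a2 call. The Arg1 call, and that of Srm with IL-4, were lost without replicate 1 or replicate 3 of every group. The untreated libraries cancel in these differences, since both times are set against the same ones. No untreated library was labelled with a time, so longer treatment and time in culture cannot be told apart in these differences.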

How the results depend on the processing

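Counts are members called of 9, against untreated cells unless another comparison is named. No call of the fit without a block turned its direction. Of the calls made with the block alone, Sms turned on deposited CPM with IL-4 at 4 h, with the combination at 2 h, and for IL-4 against IFN-γ at 4 h. With the replicate number as a block (the pairing by number) no call was lost, and the counts were 5 and 7 for IL-4 at 2 h and 4 h (3 and 4 without it), 3 for the combination against IFN-γ at 2 h (1), 6 and 5 for the combination against IL-4 at 2 h and 4 h (2 and 2), 8 for IL-4 against IFN-γ at 4 h (5), 4, 4 and 8 for 4 h against 2 h with IL-4, IFN-γ and the combination (1, 1 and 5), and 1 and 3 for the interaction at 2 h and 4 h (0 and 1). In the same comparisons and order, the block called 25.5% and 47.5% of all genes, 10.4%, 33.2% and 56%, 63.3%, 19.8%, 45.2% and 46.9%, and 3.01% and 14.8%, so its added member calls stand beside more calls over all genes (2901 with it and 981 without it for IL-4 at 2 h). The block gave 4 and 6 for IFN-γ at 2 h and 4 h (4 and 4 without it) and 7 and 8 for the combination (5 and 6). It gave 5 for the combination against IFN-γ at 4 h (4) and 6 for IL-4 against IFN-γ at 2 h (5). Over all genes it called 38.1% and 63.3%, 43.4% and 66.7%, 32.6%, and 39.1% there. The counts named below are not all that shifted: DESeq2, for example, gave 7 for the combination at 2 h (5 in the main fit). The block on deposited CPM, added after seeing the data, gave 6 for IL-4 at 2 h, 3 for the combination against IFN-γ at 2 h, 4 and 4 against IL-4, 5 for IL-4 at 4 h against 2 h, and 3 and 5 for the interaction. For the combination against IFN-γ at 2 h, deposited CPM, a pseudocount of 0.25 and edgeR gave 2 each and DESeq2 3. For the combination at 4 h against 2 h, deposited CPM, no filter and edgeR gave 3 each. Deposited CPM gave 4 for the combination against IL-4 at 4 h. No filter gave 3 for the combination at 2 h and 1 against IL-4 at 2 h. DESeq2 gave 2 for 4 h against 2 h with IL-4 and 2 with IFN-γ. With untreated replicate 1 as lone control each treatment gave 1 at 2 h; the lone library is assumed to vary like the other groups.

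Leaving out libraries gave 1 to 3 and 3 to 5 for IL-4 at 2 h and 4 h, 1 to 4 and 3 to 4 for IFN-γ, and 1 to 6 and 6 to 8 for the combination. It gave 0 to 2 and 4 to 4 for the combination against IFN-γ, 0 to 3 and 2 to 4 against IL-4, 3 to 5 and 5 to 6 for IL-4 against IFN-γ, 0 to 3, 1 to 3 and 2 to 5 for 4 h against 2 h with IL-4, IFN-γ and the combination, and 0 to 1 and 0 to 2 for the interaction.

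Over all genes, calls against untreated cells moved most without replicate 3 and with a block: for IL-4 at 4 h 2515 became 952 and 5409 (6054 with the block on deposited CPM), for IFN-γ at 4 h 4456 became 2299 and up to 7203, and for the combination at 4 h 4850 became 2805 and up to 7595. For the interaction at 4 h 194 became 20 and up to 1689. The causes were not tested. Depth limits Ass1, and Nos2 and Arg1 in untreated cells, where few reads were counted.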
